A study of Mus musculus with 4 samples.

Results

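Aggrecan and hyaluronan together give cartilage its resistance to compression, and 10 genes of this system are described here across all 4 libraries of the study. The members were taken by name from 24421 gene rows: the hyaluronan-binding proteoglycans Acan and Vcan, the link proteins Hapln1 and Hapln3, the hyaluronan synthases Has1, Has2 and Has3, the hyaluronidases Hyal1 and Hyal2, and the receptor Cd44. All 10 were found, and 8 had enough counts to be tested; Hapln3 and Has3 had too few.

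Messenger RNA was counted in superficial-zone cartilage of the medial femoral condyle from 2 mice on the C57BL/6J background, M04 and M05, 8 weeks after surgery. Each mouse gave 1 library from a sham-operated knee and 1 from a knee whose medial meniscus had been surgically destabilized (DMM), an operation that leads to osteoarthritis. Both mice are wild type by the sample labels, but in the series' design text M05 is a knockout, with no gene given, so M05 and M04 are compared only as animals. Ages are not given, and where the free text of the sham samples mentions DMM surgery, their titles and treatment labels were followed. The 2 libraries of a group come from separate mice, so that n = 2 per surgery. An exact permutation test of 2 against 2 on a single value, without the pairing by mouse, cannot go below a two-sided p of 0.333.

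Aggrecan is a core protein that carries many chondroitin sulfate chains. Its amino-terminal domain binds a long hyaluronan strand, and a link protein locks the pair together, so that many aggrecan molecules hang from each strand and hold water in the collagen network. Hyaluronan itself is spun out through the cell membrane by the synthases, is cut by hyaluronidases, and is held at the cell surface by CD44. Versican is a relative of aggrecan found in looser tissues and in embryonic matrix.

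The libraries held 12712425 to 19336628 counts. Transcripts of cartilage were a small part of them. A reference set of 18 other cartilage genes, among them Col2a1, Col9a1 and Comp, made up 0.681% (sham) and 0.856% (DMM) of the counts for M04, and 0.161% (sham) and 0.565% (DMM) for M05. On the scale used below, CPM (a gene's count divided by the TMM-normalised library size and scaled to a common total), the set summed to 1822 CPM in the sham library of M05 and to between 5898 and 7592 CPM in the other libraries. The 7 erythroid markers summed to 118668 to 205534 CPM, and none of the 18 cartilage genes or the erythroid markers was at 0 in all libraries. In such bulk samples fewer cells of a type and less RNA per cell cannot be told apart.

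The genes covered a wide range of levels. FPKM, the authors' unit per transcript length, allows genes to be set beside each other. Acan stood at 6.05 to 39.3 FPKM over the 4 libraries, Cd44 at 19.3 to 24.2 and Hapln1 at 4.87 to 13.9. Hyal2 followed at 5.95 to 8.45 FPKM. Hyal1 had 0.476 to 1.59, Vcan 0.696 to 0.838 and Has1 0.124 to 1.01 FPKM. Has2 had 0.0871 to 0.328 FPKM, Hapln3 at most 0.182 and Has3 at most 0.129, both listed at 0 in at least 1 library. Neighbours in this order overlapped, with 2 exceptions: all values of Cd44 lay above all of Hapln1, and all of Hyal2 above all of Hyal1. The proteoglycan and link protein of cartilage and the receptor were thus the highest members by mean FPKM. In the sham library of M05, however, Hyal2 (8.45) stood above Acan (6.05) and Hapln1 (4.87). All 3 synthases were near the limit of detection, since 3 counts correspond to 0.176 to 0.246 CPM.

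**Figure D1:**
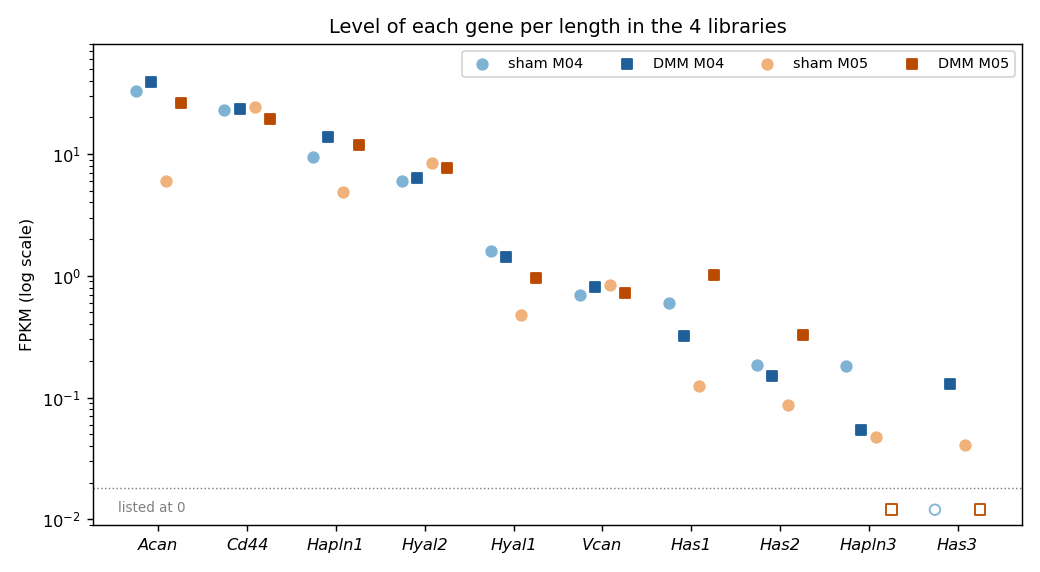
FPKM (log axis) of each gene in the 4 libraries, ordered by mean, with circles for sham and squares for DMM knees. Open symbols below the dotted line are listed at 0; Acan spans 6.05 to 39.3 FPKM, with the sham library of M05 far below the other libraries, while Cd44 keeps between 19.3 and 24.2.

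Several members lie side by side in the genome. In RefSeq's GRCm38.p6 annotation the next protein-coding gene after Acan on chromosome 7 is Hapln3, Hapln1 and Vcan are next to each other on chromosome 13, and so are Hyal2 and Hyal1 on chromosome 9. By mean FPKM, Acan stood above Hapln3, Hapln1 above Vcan, and Hyal2 above Hyal1. The Acan to Vcan ratio in FPKM was 47.5 and 48.6 in the sham and DMM knees of M04, and 7.22 and 36.6 for the corresponding knees of M05. The 250 bases before the RefSeq start of 3 of these genes are shown because they set the most abundant member beside its neighbour and beside the other proteoglycan; the window of Hapln1 lies within an annotated exon and is not shown. Capitals mark GC boxes (GGGCGG, on either strand, so also as CCGCCC) and TATA boxes (TATAAA). Coordinates are those of GRCm38.p6, with Acan at chr7:79052976-79053225 on the plus strand, Hapln3 at chr7:79131019-79131268 on the minus strand and Vcan at chr13:89742513-89742762 on the minus strand.
Acan: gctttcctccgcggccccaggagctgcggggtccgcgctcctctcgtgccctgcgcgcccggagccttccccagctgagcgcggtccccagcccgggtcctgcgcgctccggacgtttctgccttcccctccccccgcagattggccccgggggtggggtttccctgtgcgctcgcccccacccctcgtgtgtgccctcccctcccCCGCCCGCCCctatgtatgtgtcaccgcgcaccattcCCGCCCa
Hapln3: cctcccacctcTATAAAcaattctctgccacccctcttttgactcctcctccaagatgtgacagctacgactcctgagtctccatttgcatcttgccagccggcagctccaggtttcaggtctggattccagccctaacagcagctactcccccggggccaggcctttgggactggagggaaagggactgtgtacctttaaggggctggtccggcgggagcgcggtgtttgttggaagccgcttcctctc
Vcan: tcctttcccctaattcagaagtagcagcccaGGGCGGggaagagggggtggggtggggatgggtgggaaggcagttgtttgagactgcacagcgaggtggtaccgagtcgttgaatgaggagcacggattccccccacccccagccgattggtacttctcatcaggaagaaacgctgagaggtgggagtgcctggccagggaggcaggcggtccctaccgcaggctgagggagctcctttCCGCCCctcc
The Acan window was 74.4% G and C, against 62.4% for Vcan, 58% for Hapln3 and a median of 52.4% over the windows of all 32851 RefSeq starts. It held 26 CG dinucleotides, the Vcan window 10 and the Hapln3 window 8. Acan had 3 GC boxes, of which those starting 44 and 40 bases before the start overlap, and Vcan had 2. A GC box occurs in 32.7% of all windows and a TATA box in 12.4%; the only TATAAA of the 3 windows lies at -239 in Hapln3, counted from the start. ACAATG and ACAAAG, cores of the motif bound by SOX factors, occur on either strand in 10.7% and 16.5% of all windows, and these letters are in none of the 3 shown. A match describes the sequence and is not a measured binding site.

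The first comparison asked how the DMM knee differs from the sham knee, with the mouse as a block. Of the 8 members tested, Hapln1 was higher and none was lower at an adjusted p of 0.05 over all genes. The background was 0.633% of the 13103 genes tested called higher (83 genes) and 0.0153% called lower (2 genes), 0.649% in all. The median log2 fold change was 0.52 over the 8 members and -0.01 over all genes. This fit leaves 1 residual degree of freedom, and for 83% of genes the test used only the spread estimated over genes of like abundance.

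Hapln1, the link protein of cartilage, rose in DMM knees. It had 618 counts (45.8 CPM) in the sham knee of M04 and 1019 (68.1 CPM) in its DMM knee, and 403 (23.6 CPM) in the sham knee of M05 and 695 (57.1 CPM) in its DMM knee. Both DMM libraries lay above both sham libraries. The log2 fold change was 0.92 (SE 0.17, edgeR adjusted p = 3.09e-05), a fold of 1.89. Its prior had 10960.9 degrees of freedom against 1 residual degree of freedom. The SE and p thus rest almost wholly on the spread of other genes and not on that between the mice. Within the mice, the log2 ratio was 0.57 in M04 (95% interval 0.43 to 0.72) and 1.27 in M05 (1.09 to 1.45); these intervals, here and below, cover counting error only. The call was kept in 7 of 15 alternatives. Of these, 1 was only the looser threshold of 0.1 on the same fit, which could not lose it. The call was lost without the mouse term (0.86, edgeR adjusted p = 1.0), by DESeq2 (0.92, adjusted p = 0.146) and by limma on FPKM. With scaling to the cartilage reference genes it was also lost, and the fold change turned to -0.035 (SE 1.24). Fits of 3 libraries had no mouse term and lost the call, except the one without the sham library of M04. Without the sham library of M05 the fold change was 0.45.

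Acan, the aggrecan core protein, was higher in the DMM than in the sham knee of each mouse but did not pass. It had 3166 counts (235 CPM) in the sham knee of M04 and 4202 (281 CPM) in its DMM knee, and 737 (43.2 CPM) in the sham knee of M05 and 2277 (187 CPM) in its DMM knee. The low value is that of the sham library of M05; the groups overlapped, since the sham knee of M04 lay above the DMM knee of M05. The fold within M04 was 1.20, with a log2 ratio of 0.26 (counting interval 0.19 to 0.33), and the fold within M05 was 4.32, with a log2 ratio of 2.11 (1.99 to 2.23). The log2 fold change over both was 1.17 (SE 0.96, edgeR adjusted p = 1.0). Robust moderation decided the call: Acan was treated as an outlier in spread, with a prior of 0.0156 degrees of freedom, and without robust moderation the same fold change had an edgeR adjusted p of 7.21e-09 (4.07e-13 to 1.0 over 15 alternatives). In fits with no mouse term, the fold change was -0.0050 without the sham library of M05 and 2.44 without that of M04. Each sets both DMM knees against the sham knee of a single mouse, so the difference between the mice enters it.

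**Figure D2:**
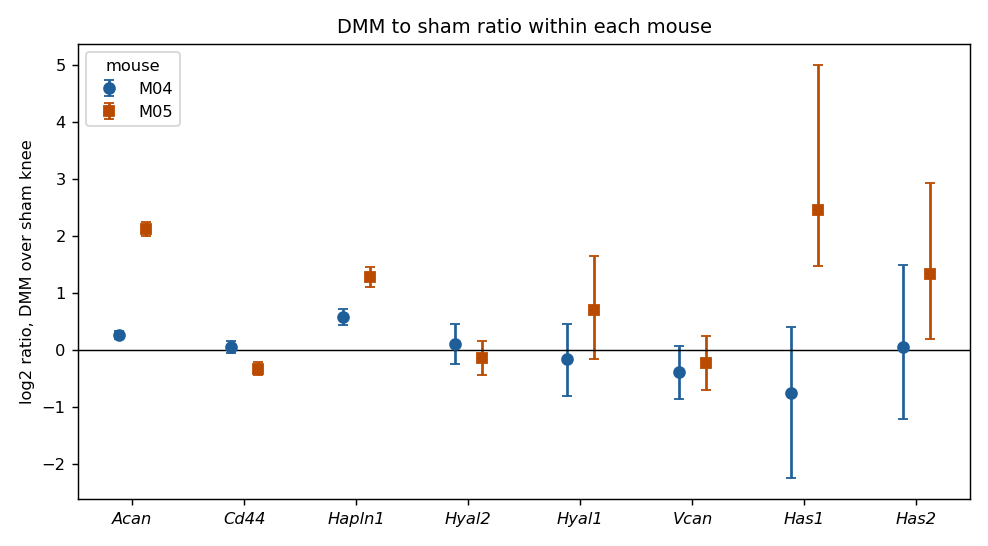
Log2 ratio of the DMM to the sham knee within M04 (circles) and M05 (squares) for the 8 tested members; bars are 95% intervals that cover counting error only. Hapln1 lies above 0 in both mice, Acan is at 0.26 in M04 and 2.11 in M05, and the synthases have the widest intervals.

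Vcan, the proteoglycan of looser tissues, had few counts and did not pass. It had 87 counts (6.44 CPM) in the sham and 73 (4.88 CPM) in the DMM knee of M04, and 102 (5.98 CPM) and 62 (5.09 CPM) in those of M05. Both DMM libraries lay below both sham libraries, but each counting interval of the ratio reached 0 (-0.87 to 0.06 in M04 and -0.71 to 0.24 in M05). The log2 fold change was -0.32 (SE 0.36, edgeR adjusted p = 1.0). The deposited FPKM of Vcan gave another direction in M04, 0.696 in the sham and 0.807 in the DMM knee. The FPKM value per raw CPM of Vcan varied 1.54-fold between the libraries, against 1.28-fold for Acan and Cd44. Hapln3, a link protein of other tissues and the neighbour of Acan, had 3, 3, 1 and 0 counts in the sham and DMM knees of M04 and M05 in this order. That is at or under the 3 counts that a count of 0 allows, so no fold is given.

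The synthases were counted in small numbers. Has1 had 15 counts (1.11 CPM) in the sham and 9 (0.602 CPM) in the DMM knee of M04, and 4 (0.235 CPM) and 23 (1.89 CPM) in those of M05. Its ratio thus had opposite signs, -0.76 in M04 (counting interval -2.26 to 0.40) and 2.44 in M05 (1.46 to 5.0). Over both mice the log2 fold change was 0.93 (SE 0.91, edgeR adjusted p = 1.0). Has2, the main synthase of chondrocytes, had 10 estimated counts in the sham knee of M04 and 11.5 in its DMM knee, and 7.5 and 16 in those of M05. Both DMM libraries lay above both sham libraries, at 0.769 and 1.31 CPM against 0.741 and 0.440 CPM, with a log2 fold change of 0.79 (SE 0.88, edgeR adjusted p = 1.0). In the deposited FPKM the groups of Has2 overlapped, since M04 had 0.185 in the sham and 0.149 in the DMM knee; its FPKM value per raw CPM varied 1.52-fold between the libraries. Has3 had counts in 2 libraries, 11 in the DMM knee of M04 and 4 in the sham knee of M05, and 0 in the others. In the GENCODE M21 annotation Has2 shares 182 exonic bases with the antisense gene Has2os and Has3 shares 352 with Chtf8 on the opposite strand. Strand use is not stated, so reads of these partners cannot be told apart; Chtf8 had 1610 to 2135 counts per library and Has2os at most 2.5. Summed, the 3 synthases had 25 and 31.5 counts in the sham and DMM knees of M04, and 15.5 and 39 for the corresponding knees of M05. These counts are not scaled for depth, and the M04 sum for the DMM knee includes the 11 of Has3. Summed FPKM had the other direction in M04, 0.778 in the sham and 0.596 in the DMM knee. For M05 it was 0.252 and 1.34.

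The hyaluronidases differed from each other in level. Hyal2, an enzyme anchored at the cell surface that cuts long hyaluronan, had 131 counts (9.70 CPM) in the sham and 155 (10.4 CPM) in the DMM knee of M04, and 239 (14.0 CPM) and 154 (12.6 CPM) in those of M05. The surgery groups overlapped. The log2 fold change for DMM was -0.03 (SE 0.26, edgeR adjusted p = 1.0). Hyal1, the lysosomal enzyme that degrades the fragments further, had 45 counts (3.33 CPM) in the sham and 44.5 (2.98 CPM) in the DMM knee of M04, and 20.6 (1.21 CPM) and 25 (2.05 CPM) in those of M05. The surgery groups of Hyal1 overlapped too, and its log2 fold change for DMM was 0.24 (SE 0.56, edgeR adjusted p = 1.0). Hyal1 shares 1920 exonic bases in GENCODE M21 with Naa80, listed here as Nat6 with 358 to 464 counts, so its small count is uncertain. In FPKM Hyal2 stood 3.74 and 4.42 times above Hyal1 in the sham and DMM knees of M04, and 17.7 and 7.97 times above it for the corresponding knees of M05.

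Cd44, the hyaluronan receptor of chondrocytes and of many blood cells, had the narrowest range of the members in FPKM relative to its level, apart from Vcan. It had 1297 counts (96.1 CPM) in the sham and 1487 (99.4 CPM) in the DMM knee of M04, and 1736 (102 CPM) and 981 (80.6 CPM) in those of M05. The DMM library of M05 was the lowest and the groups overlapped. The ratio was 0.05 in M04 (counting interval -0.06 to 0.16) and -0.34 in M05 (-0.45 to -0.22), and the log2 fold change was -0.14 (SE 0.15, edgeR adjusted p = 1.0). Leukocyte transcripts were abundant in these libraries. The granulocyte markers, of which 11 of 12 were found and none was at 0, summed to 40991 CPM in the sham and 40849 CPM in the DMM knee of M04, and to 67426 and 58375 CPM for the corresponding knees of M05. The 11 macrophage and monocyte markers, all found, summed to 1607 and 1533 CPM in M04 and to 1643 and 1652 CPM in M05. Their part in the level of Cd44 was not tested. The Cd44 to Acan ratio in FPKM was 0.697 and 0.599 in the sham and DMM knees of M04, and 3.99 and 0.733 for M05.

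Over the 8 tested members, 4 had the same sign of the ratio in both mice (Acan, Hapln1, Has2 and Vcan) in CPM, against 47.1% of all tested genes. In 3 members (Hapln1, Has2 and Vcan) the 2 DMM libraries did not overlap the 2 sham libraries, against 25.6% of all tested genes; in FPKM the direction of Has2 and Vcan in M04 was the opposite. The median ratio of the members was 0.05 in M04 and 0.98 in M05, and that of all tested genes was 0.01 and -0.01. A model with mouse, surgery and their interaction would use up all 4 libraries, so the difference in response has no full test. A fit that set 2 libraries, the DMM knee of M04 with the sham knee of M05, against the others, and counted mouse and surgery effects as spread, passed none of the 8 members (edgeR; background 0.0153%, 2 genes). Without adjustment, 1 of the 8 members was under 0.05 (edgeR), Has1 with 4 to 23 counts per library, against 306 of all 13103 genes tested.

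The second comparison set M05 against M04, with surgery as a term. Of the 8 members, Hapln1 was lower and none was higher, with a background of 1.64% of genes lower (215) and 0.962% higher (126), 2.6% in all. The log2 fold change of Hapln1 was -0.60 (SE 0.17, edgeR adjusted p = 0.0213), and the gap lay mostly between the sham knees. In the sham knees M05 stood at a log2 ratio of -0.95 to M04, in the DMM knees at -0.26. The 14 alternatives held no DESeq2 result for Hapln1. The call was kept in 5 of the 14, of which 1 was only the looser threshold of 0.1 on the same fit. It was lost with RLE scaling (adjusted p = 0.0686), with the haemoglobin rows left out (0.111), by limma on FPKM (0.556 and 0.545), without the surgery term (0.775) and with the cartilage reference scaling, where the fold change turned to 0.49. Fits of 3 libraries had no surgery term. Each sets a single knee of a mouse against both knees of the other mouse, so the difference between the knees enters it. Of these fits the call was kept only in that without the DMM library of M05. Leaving out the sham library gave -0.75 for M04 and 0.0026 for M05, and leaving out the DMM knee of M04 gave -0.19. Acan did not pass at -1.5 (SE 0.97, edgeR adjusted p = 0.762), but did without robust moderation and in 1 fit of 3 libraries (adjusted p 5.58e-15 to 0.897 over 15 alternatives). In the sham knees Acan was 5.41 times as high in M04 as in M05, in the DMM knees 1.5 times. Hyal1 (-0.97, SE 0.56, adjusted p = 0.443) and Hyal2 (0.41, SE 0.26, adjusted p = 0.494) did not pass, nor did Cd44 (-0.11), Vcan (-0.03), Has1 (-0.08) or Has2 (0.08).

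The profile of Acan over the libraries was set beside those of other genes. The genes of at least 10 CPM on average whose profile over the 4 libraries was nearest to that of Acan were Cilp, a cartilage matrix protein (distance 0.17 in centred log2 CPM, against a spread of 2.13 in Acan itself), Col2a1, the fibril-forming collagen of cartilage (0.22), the thrombospondin Thbs3 (0.24), Col9a2 (0.38) and the collagen-binding protein Prelp (0.48). They were chosen from 7288 genes for this likeness, over 4 libraries that share 2 mice. Among the genes nearest to Cd44, chosen in the same way, were Ppig (distance 0.04), Ero1l (0.04), Hmgb1 (0.04) and Elf1 (0.05), against a spread of 0.26 in Cd44 itself. Counts of Acan were 7.01% and 7.35% of those of Col2a1 in the sham and DMM knees of M04, and 5.95% and 6.83% for the corresponding knees of M05. For Hapln1 the same share was 1.37% and 1.78% in M04, against 3.25% and 2.08% for M05. The Acan to Hapln1 ratio in FPKM was 3.47 and 2.82 in M04, against 1.24 and 2.25 for M05.

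The ratios of the 18 reference genes ran from -0.06 to 1.03 in M04 (median 0.25) and from 0.83 to 2.19 in M05 (median 1.58). Acan lay above 10 of the 18 in M04 and above 17 in M05, whereas Hapln1 lay above 16 in M04 and above 3 in M05. In the summed counts of the reference set Col2a1 weighed most, with 148042 counts over all libraries, ahead of Chad with 37960.5. Per 1000 counts of the set, Acan had 36.0 and 37.0 counts in the sham and DMM knees of M04. For the corresponding knees of M05 it had 23.7 and 31.7. Hapln1 had 7.03 and 8.98 in M04, against 13.0 and 9.67 for M05, so that on this scale its direction differed between the mice. Cd44 had 14.8 and 13.1 in M04, against 55.9 and 13.7 for M05, and the sham library of M05 was also the highest for Hyal2 (7.69, against at most 2.14 elsewhere) and for Vcan (3.28, against at most 0.990).

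**Figure D3:**
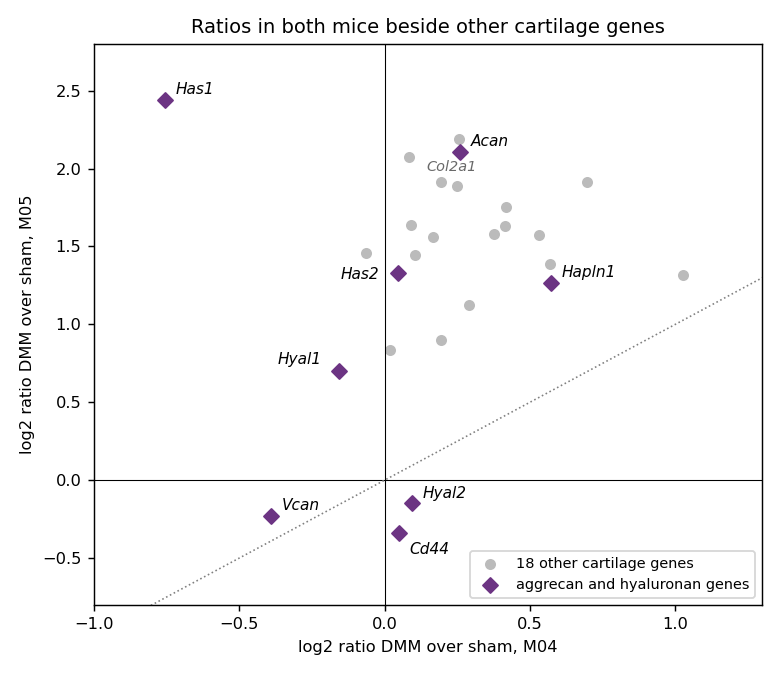
Log2 DMM to sham ratio in M04 (horizontal) and M05 (vertical) for the 8 tested members (diamonds) and 18 other cartilage genes (grey circles); the dotted line marks equal ratios. Acan lies among the cartilage genes at 0.26 and 2.11 and Hapln1 at 0.57 and 1.27, while Vcan, Hyal1, Hyal2 and Cd44 lie below all of them on the M05 axis.

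**Figure D4:**
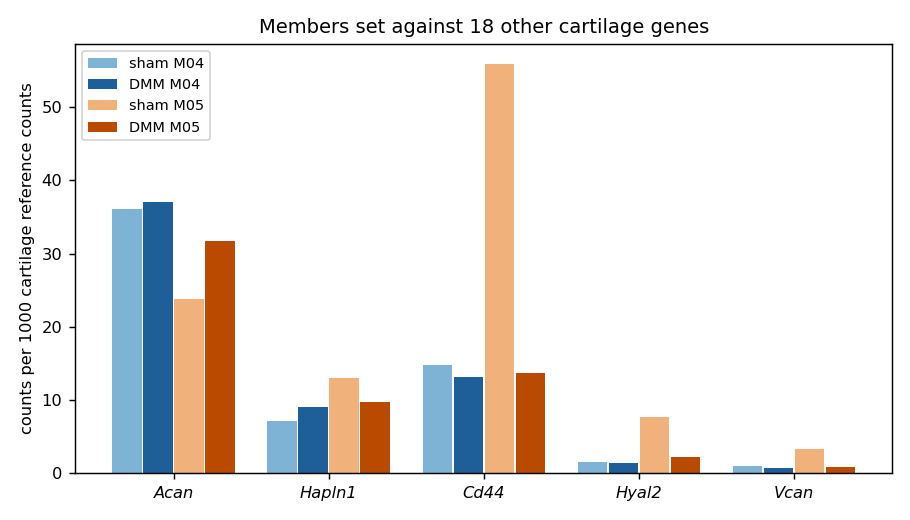
Counts of 5 members per 1000 counts of the 18 reference cartilage genes in each library (bars, linear axis from 0). Acan stays between 23.7 and 37.0, while Cd44 reaches 55.9 in the sham library of M05 and at most 14.8 in the others.

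When the edgeR fit was scaled to the reference genes in place of TMM, the median of all tested genes moved to a log2 fold change of -0.97 for DMM against sham. On that scale Acan stood at 0.23, Hapln1 at -0.04, Has1 at 0.05 and Has2 at -0.16. Hyal1 stood at -0.67, Hyal2 at -0.99, Cd44 at -1.10 and Vcan at -1.27. The SEs of the members ran from 1.17 (Acan) to 1.73 (Has1), with 1.24 for Hapln1. No gene passed (edgeR, 1 of 13103 at an unadjusted p under 0.05). With such SEs the fit could not have called a change as large as the 0.92 of Hapln1 under TMM. The rise of Hapln1 was measured relative to all transcripts of the sample. Relative to the reference genes its estimate was -0.04, too uncertain to decide. Of these 18 genes 9 were called higher in DMM knees under TMM (median 1.01) and 11 lower in M05. Of 9 markers of synovial and tendon fibroblasts, all found, 7 were tested and 3 rose in DMM knees, Col3a1 (log2 fold change 2.08), Dpt (2.09) and Clec3b (2.19). Pi16 (-0.13), Pdgfra (-0.06), Thy1 (0.36) and Mfap5 (1.08) did not pass, and Scx and Tnmd, too low to test, were at 0 in the sham library of M04. The 9 summed to 146 and 484 CPM in the sham and DMM knees of M04, and to 115 and 232 CPM for the corresponding knees of M05. Most of that sum was Col3a1, with 75.6 and 394 CPM in M04 and 43.9 and 150.0 CPM in M05. The part of these markers in the result was not tested.

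**Figure D5:**
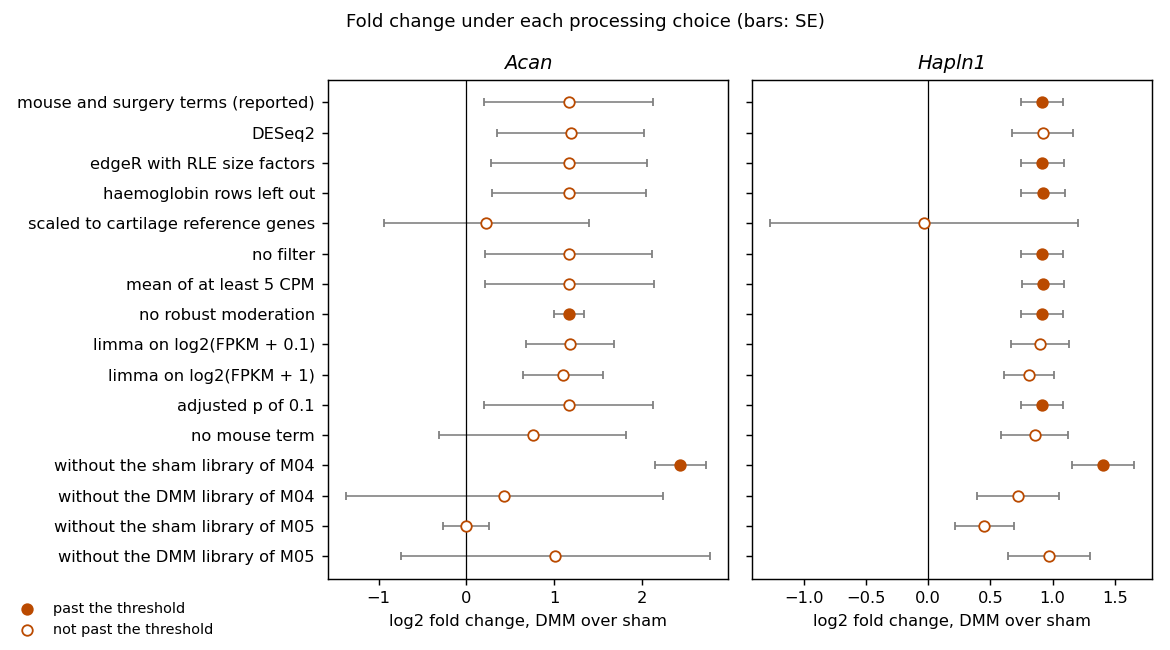
Log2 fold change of DMM over sham (horizontal axis) for Acan and Hapln1 under each processing choice (rows), with bars of 1 SE; filled points passed the threshold. Hapln1 passed in the reported fit and in 7 alternatives, of which 1 was only the looser threshold of 0.1 on the same fit. Acan passed without robust moderation and without the sham library of M04. Fits without 1 library had no mouse term.

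Other genes of the system were taken from lists. Of 10 further genes of hyaluronan breakdown 6 were tested and none passed in either comparison, with a median log2 fold change of 0.06 for DMM. Among its more abundant genes were lysosomal exoglycosidases, Hexa at 199 to 219 CPM and Gusb at 71.0 to 90.2 CPM over the libraries, with log2 fold changes for DMM of 0.05 and 0.16. Tmem2, a surface hyaluronidase, had 3.37 CPM in the DMM library of M05 and 6.69 to 8.83 CPM elsewhere (-0.39, SE 0.34, edgeR adjusted p = 1.0). Hyal4, Hyal5, Hyal6 and Spam1 had no counts. Of 17 genes of hyaluronan binding and uptake 10 were tested and 2 were higher in DMM knees, the lubricin gene Prg4 (0.74, SE 0.18, edgeR adjusted p = 0.0359) and Susd5, a membrane protein with a link domain. Prg4 had 300 CPM in the sham and 315 in the DMM knee of M04, with 90.0 and 241 CPM for M05. Its groups overlapped, since the sham knee of M04 lay above the DMM knee of M05. Susd5 had 22.7 CPM in the sham and 35.2 in the DMM knee of M04, with 12.6 and 28.2 CPM for M05, and it rose by 0.89 (SE 0.19, edgeR adjusted p = 0.00131). The median of the list was 0.24. The uptake receptors Stab1 (0.05) and Stab2 (-0.33) and Hmmr, a protein of dividing cells that also binds hyaluronan (-0.32), did not pass. Tnfaip6, which moves heavy chains onto hyaluronan in inflamed tissue, had 11 counts in all and was not tested. In M05 against M04 Prg4 was lower (-1.06, SE 0.19, edgeR adjusted p = 0.000206).

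None of 8 genes of precursor sugar supply passed in either comparison. Ugdh, which makes the glucuronic acid donor, had log2 fold changes of -0.0047 for DMM and 0.05 for M05, and Ugp2, Uap1l1 and Uap1 had 0.04, 0.08 and -0.07 for DMM. Of 21 genes that build and sulfate the chains of aggrecan none passed for DMM (median -0.01), including the sulfotransferases Chst12 (0.15) and Chst11 (0.33), the kinase Fam20b (-0.38) and Papss2 (0.44), which makes the sulfate donor. Chst11 was lower in M05 (-0.62, SE 0.16, edgeR adjusted p = 0.0113). In the list of proteases that cut aggrecan and versican and their inhibitor, 9 of 11 were tested and 2 were higher in DMM knees, the stromelysin Mmp3 (2.46, SE 0.64, edgeR adjusted p = 0.0277) and the serine protease Htra1 (1.38, SE 0.20, edgeR adjusted p = 4.3e-09). Mmp3 was low, with 128 counts over all libraries. It stood at 0.741 and 6.02 CPM in the sham and DMM knees of M04, and at 0.469 and 1.64 CPM for M05. Mmp13 (0.53) and the aggrecanases Adamts5 (-0.38), Adamts4 (-0.44) and Adamts9 (0.12) did not pass. The inhibitor Timp3 did not pass for DMM (0.25) and was lower in M05 (-0.59, SE 0.16, edgeR adjusted p = 0.0116). The other lecticans and link proteins were scarce: Bcan had 44 counts over all libraries, Hapln4 29, Ncan 4 and Hapln2 none.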

How the data were processed

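Poly(A) RNA libraries were sequenced as single-end reads, per the labels' protocols. Per the submitters' processing notes, the reference was GRCm39 (mm39). Of aligner, counter, annotation and strand use nothing is stated in the sources used here. The authors deposited estimated counts (9.21% to 10.9% of a library's values were not whole) and FPKM values, scaled by the authors for length and depth. Each count column is repeated under another name, with 0 differing values, and was used once.

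Estimated counts were rounded and fitted with edgeR 4.0.16 in R 4.3.3 (filterByExpr, TMM, robust quasi-likelihood, mouse and surgery as terms), with Benjamini-Hochberg adjustment over 13103 genes. Both knees of an animal are labelled with its number, so mouse was a block; deviations of same-mouse libraries correlated at 0.126. Log2 ratios per mouse used a prior count of 2. Alternatives used DESeq2 1.42.0, limma 3.58.1 on log2(FPKM + 0.1) or log2(FPKM + 1), RLE, other filters and scalings, and fits without each library. Counting intervals are 95% Clopper-Pearson intervals of the share of 2 libraries. Named beyond the members are listed genes past the threshold and up to 4 per list with the highest mean, plus genes chosen after their values were seen (Col3a1, Dpt, Clec3b, Tnfaip6, Adamts4, Adamts9, Hyal4, Hyal5, Hyal6, Spam1 and the scarce lecticans and link proteins). Members and lists were chosen with earlier results of these data known. Upstream sequences are RefSeq's (GRCm38.p6), matched by symbol for 8 of 10 members; exon overlaps are from GENCODE M21. Some genes that the naming rule selects are not reported here.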

Additional observations from a re-analysis of the deposited data

How the results depend on the processing

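The mouse block mattered for the number of calls. For DMM against sham, 85 genes passed with it and 0 with no replicate block (322 at an unadjusted p under 0.05, edgeR), 13 with DESeq2, 35 with RLE, 23 with the haemoglobin rows left out, and 0 with the cartilage reference scaling and with either FPKM pseudocount in limma (1, 473 and 496 at an unadjusted p under 0.05). Without 1 library in turn, in fits with no mouse term in which the lone sample is assumed to vary like the other group, 0 to 121 passed. For M05 against M04, 341 passed, against 72 with DESeq2, 186 with RLE, 111 with the haemoglobin rows left out, 0 with the cartilage reference scaling, 0 and 0 with the FPKM pseudocounts in limma (16, 1117 and 1162 at an unadjusted p under 0.05), 0 without the surgery term, 569 at an adjusted p of 0.1, and 0 to 331 without 1 library. The response difference gave 2, and 24 with no filter.

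Scaled to the cartilage reference, the DMM fold changes of Hapln1 (-0.035), Has2 (-0.16) and Hyal1 (-0.67) and the M05 fold changes of Vcan (1.08), Hapln1 (0.49), Has1 (0.88), Hyal1 (0.12) and Cd44 (0.99) turned sign. On FPKM, Vcan turned to 1.9e-05 for DMM and to 0.048 and 0.023 for M05 (pseudocounts 0.1 and 1), and Has1 to 0.052 for M05 (pseudocount 1); without the surgery term Has1 stood at 0.26. Without 1 library, DMM fold changes ran from -0.0050 to 2.44 (Acan), -0.29 to 0.0031 (Cd44), -0.13 to 2.35 (Has1), -0.41 to 1.02 (Hyal1) and -0.29 to 0.24 (Hyal2). The M05 fits without 1 library had no surgery term. Their M05 fold changes ran from -1.27 to 0.0026 (Hapln1), -1.82 to 1.14 (Has1) and -0.71 to 0.76 (Has2). For Vcan they ran from -0.22 to 0.20 and for Cd44 from -0.28 to 0.061. The cause of these turns was not tested. Depth limits the synthases, Hapln3 and Hyal1 most.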
